A study of Mus musculus with 8 samples.

Results

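The RNA recovered by an anti-Zmat3 antibody from cells without Zmat3 was described from the 167648 peaks of the knockout immunoprecipitate (IP) over its input. All peaks of that list were included, out of 978429 in the 7 deposited lists. The study applied crosslinking and immunoprecipitation (CLIP) to transformed mouse embryonic fibroblasts (MEFs) and holds 8 samples, which are 4 IPs and 4 inputs. The knockout IP came from 1 MEF line of genotype Zmat3-/-;E1A;HrasG12V, with no guide RNA. The 3 control IPs came from Cas9+;E1A;HrasG12V MEFs that carried the negative-control guide EV (control 1), SPA (control 2) or ACOCA (control 3). Every line had received E1A and mutant Hras by retrovirus with hygromycin and blasticidin selection. The control lines had also received a guide by lentivirus, 3 days of puromycin and 10 further days of culture. Presence of Zmat3, Cas9, guide and line of origin therefore changed together and cannot be told apart, and 1 knockout library allows no test between genotypes. Cells were crosslinked with UV light before lysis, RNase digestion and IP, and the sequenced RNA was taken from a gel slice spanning 35 to 110 kDa.

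Zmat3 is a zinc-finger protein that binds RNA and is encoded by a target gene of p53. In CLIP, an IP from cells that lack the target protein is a usual reference for RNA that reaches the library without it. Structured and abundant RNAs are common in such libraries. Among them are snoRNAs, which guide the modification of ribosomal and spliceosomal RNA and lie mostly in introns of host genes. C/D box snoRNAs guide 2′-O-methylation and H/ACA box snoRNAs guide pseudouridylation. MicroRNAs are cut from hairpins in longer transcripts, and their seed, the bases 2 to 8, pairs with target RNAs.

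The value of a peak is the authors' log2 fold of the IP over input. Peaks with a deposited log2 fold of 3 or more and a deposited −log10 p-value of 3 or more are termed enriched. The lists hold no read counts, so the depth is unknown. Intervals on shares below are exact binomial (Clopper-Pearson) 95% intervals that cover the counting of peaks only, and neighbouring peaks of a gene are not independent. Of the 167648 called knockout peaks, 529 were enriched (0.316%). The corresponding shares in the controls were 1319 peaks (1.02%), 1622 peaks (1.05%) and 604 peaks (0.494%). The enriched knockout peaks lay in 239 uniquely named genes, which is 2.31% of the 10352 genes with a called peak, against 6.37%, 10.4% and 3.36% in controls 1, 2 and 3. The knockout list as a whole was centred lower, with a median log2 fold of 0.23 against 0.90, 0.60 and 0.60, and 41.1% of its peaks lay below 0 against 17.3%, 19.5% and 25.3%. Fibroblast markers had called knockout peaks in 3 of 8 genes (102 peaks), while Col1a1, Col1a2, Col3a1, S100a4 and Thy1 had none. Epithelial markers had called peaks in 3 of 6 genes (19 peaks), immune markers in 1 of 6 (2 peaks), and endothelial, neural, erythroid and muscle markers had none.

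MicroRNA precursors were among the RNAs recovered from knockout cells. Of 108 microRNA genes with a called knockout peak, 9 had an enriched one, namely Mir21a, Mir222, Mir125b-1, Mir25 and the miR-17-92 cluster members Mir18, Mir19a, Mir20a, Mir19b-1 and Mir92-1. The mature products are shown because they identify which family each hairpin feeds, with the seed in capitals (RefSeq, GRCm38.p6). Of the 108 genes, 102 were matched in the RefSeq sequence table.
miR-18a-5p: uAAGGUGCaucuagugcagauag
miR-20a-5p: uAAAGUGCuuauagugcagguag
miR-19a-3p: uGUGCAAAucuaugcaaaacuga
miR-19b-3p: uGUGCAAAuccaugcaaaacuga
miR-92a-3p: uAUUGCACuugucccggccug
miR-25-3p: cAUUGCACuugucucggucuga
miR-21a-5p: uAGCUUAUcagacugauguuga
miR-222-3p: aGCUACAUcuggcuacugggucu
miR-125b-5p: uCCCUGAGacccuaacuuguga
miR-125b-1-3p: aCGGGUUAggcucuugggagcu
miR-19a-3p and miR-19b-3p share the seed GUGCAAA, and miR-25-3p and miR-92a-3p share AUUGCAC. The other 6 products each have a seed of their own within the set.

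Enriched knockout peaks covered part of each hairpin, and in several cases they ran into the flank. In the hairpins below the bases under an enriched knockout peak are in capitals, to show which arm was recovered (RefSeq, GRCm38.p6, 5′ to 3′).
Mir18: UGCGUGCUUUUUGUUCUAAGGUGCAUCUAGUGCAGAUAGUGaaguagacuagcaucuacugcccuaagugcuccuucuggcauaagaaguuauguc
Mir19a: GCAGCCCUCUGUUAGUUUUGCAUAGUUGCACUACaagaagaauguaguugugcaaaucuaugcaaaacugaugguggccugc
Mir20a: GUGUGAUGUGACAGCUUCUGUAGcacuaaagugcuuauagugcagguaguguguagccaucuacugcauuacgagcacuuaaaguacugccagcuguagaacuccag
Mir19b-1: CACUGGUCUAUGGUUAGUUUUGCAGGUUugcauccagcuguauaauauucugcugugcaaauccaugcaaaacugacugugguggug
Mir92-1: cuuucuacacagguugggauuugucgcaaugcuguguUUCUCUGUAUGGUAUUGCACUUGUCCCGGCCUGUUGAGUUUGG
Mir21a: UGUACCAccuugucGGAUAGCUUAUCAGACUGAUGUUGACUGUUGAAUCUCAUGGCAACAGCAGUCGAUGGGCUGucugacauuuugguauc
In Mir18, Mir19a, Mir20a and Mir19b-1 the capitals start at the first base of the hairpin. The enriched peak began 30, 29, 30 and 28 nt upstream of that base, in the same order, and ended in the 5′ arm or at the loop. In the controls the called peaks that crossed the same border began 88, 20 and 31 nt upstream at Mir18 (controls 1, 2 and 3), 49 and 39 nt at Mir19a (controls 2 and 3), 9 nt at Mir20a (control 2), and 8 and 7 nt at Mir19b-1 (controls 2 and 3). In Mir92-1 the capitals lie in the 3′ arm and hold all 21 bases of miR-92a-3p. In Mir21a, 68 of 92 hairpin bases were covered, including all 22 bases of miR-21a-5p and 20 of the 22 bases of miR-21a-3p. Among the hairpins not printed, the peak of Mir222 covered 20 of the 23 bases of miR-222-3p and that of Mir125b-1 covered 19 of the 22 bases of miR-125b-1-3p. Other printed products had 0 bases under an enriched knockout peak, namely miR-20a-5p, miR-19a-3p, miR-19b-3p, miR-25-3p and miR-125b-5p. The enriched peak of Mir25 held only 15 of its 84 hairpin bases and extended 70 nt upstream.

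At the enriched microRNA peaks the knockout was neither uniformly higher nor uniformly lower than the controls. Mir21a, whose product is abundant in fibroblasts and tumours, had a log2 fold of 4.91 in the knockout against 2.64, 4.23 and 3.84 in controls 1, 2 and 3. At 4 of the microRNA genes every control had a call over the highest enriched knockout peak. Mir21a was the only 1 of these 4 where the knockout exceeded every control. Mir18 had 3.19 against 3.42, 4.60 and 3.81, below every control. Mir19a (3.32 against 2.56, 4.29 and 3.45) and Mir25, a hairpin in the span of Mcm7 (3.11 against 2.77, 3.92 and 4.06), lay between control values. These control values belong to peaks over the enriched knockout peak, which runs into the flank at both genes. The highest control peaks assigned to the Mir25 hairpin had 3.02, 3.92 and 2.30, and control 1 had no peak assigned to Mir19a. Mir222 had 3.65, with 3.72 and 2.60 in controls 2 and 3, and Mir125b-1, in the span of Mir100hg, had 3.20, with 3.60 and 2.40 in the same controls. At Mir20a the knockout value was 3.89, and control 2 alone had a call at the position, at 2.92. Mir19b-1 had 3.86, with 2.92 and 3.40 in controls 2 and 3. Mir92-1 had its highest knockout peak, 4.29, just past the hairpin (chr14:115044506-115044594), where no control had a call. Its second enriched peak, within the 3′ arm, had a log2 fold of 4.20, and the called peaks of controls 2 and 3 in that arm had 3.02 and 2.77. Enriched control peaks were found at 6 of these 9 genes in at least 1 control, and at 17 of all 108.

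By gene class, small RNA genes accounted for more of the knockout's enriched peaks than of those in any control. Of the 529 enriched knockout peaks, 36 lay in small RNA genes, which is 6.81% (interval 4.81 to 9.30%) against 0.758%, 1.48% and 2.32% in controls 1, 2 and 3. Small RNA genes held 0.558% of all called knockout peaks. Within the class, 3.85% of 935 called knockout peaks were enriched (2.71 to 5.29%), against 1.09%, 2.12% and 1.54% in the controls, while the share over all called knockout peaks was 0.316%. Protein-coding genes held 466 enriched knockout peaks (88.1%, 85.0 to 90.7%), against 96.6%, 97.1% and 95.2%. Long non-coding RNA genes held 20 (3.78%, 2.32 to 5.78%), against 1.44%, 0.925% and 0.828%, and 7 peaks lay in no annotated gene. Of the 1677 called knockout peaks in long non-coding RNA genes, 1.19% were enriched (0.730 to 1.84%). The corresponding rates in controls 1, 2 and 3 were 1.503%, 0.986% and 0.428%, so the knockout rate lay within the control range. Without the 24 genes that held 5 or more enriched peaks each, the small RNA share was 10.1% of 358 peaks and the long non-coding share was 2.23%.

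**Figure D1:**
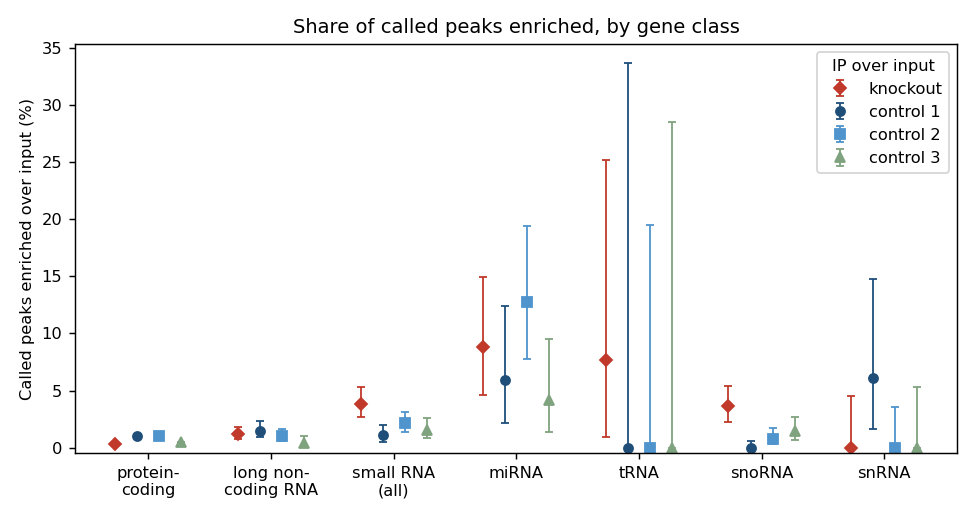
Share of called peaks that were enriched over input (y axis, percent) in each gene class (x axis), for the knockout IP and the 3 control IPs. Points are shares and bars are exact 95% binomial intervals. The knockout snoRNA share of 3.61% lies above the 3 control values (0 to 1.44%), the knockout microRNA share of 8.82% lies within the control range, and the tRNA intervals are wide because few tRNA peaks were called.

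snoRNAs made up 22 of the 36 small RNA peaks, and these 22 peaks fell in 16 genes. The share of called snoRNA peaks that were enriched was 3.61% in the knockout (22 of 610, 2.27 to 5.41%) against 0%, 0.794% and 1.44% in the controls, that is 0, 6 and 9 peaks. All 16 genes lay within the span of a host gene. At 14 of them every control also had a call, and at 12 of these 14 the knockout value was above every control. Since the peaks were chosen on the knockout value, this count favours the knockout and is given as a description. Where several control peaks overlapped a knockout peak, the highest was taken, which favours the controls.

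The highest was Gm22571, a snoRNA gene in the span of the ribosomal protein gene Rpl4, with a log2 fold of 5.27 in the knockout against 0.86, 2.75 and 2.97 in controls 1, 2 and 3. Its enriched peak (chr9:64175874-64175938) covered 65 of the 71 nt of the gene. The second snoRNA gene of Rpl4, LOC115487261, had 3.46 against −0.29, 1.12 and 1.28 and was covered over 67 of 71 nt. At both genes of this host the knockout stood above the 3 controls, and control 1 was the lowest library.

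The same order of libraries recurred at most of the other genes. Gm26287, in Nop58, which encodes a core protein of C/D box particles, had 4.31 against −0.50, 1.29 and 1.92. Gm22888, in Ubap2, had 4.54 against 0.19, 1.83 and 2.64. LOC115490074, in the ribosomal protein gene Rps20, had 4.41 against 1.27, 1.77 and 2.36. That value came from a peak of 4 nt, and the 2 enriched peaks of LOC115490074 covered 26 of 68 nt.
In each of these genes control 1 was lowest, control 3 was the highest control, and the knockout was above it.

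Several hosts are themselves non-coding transcripts known mainly as snoRNA carriers. Snord1a, in Snhg16, had 4.55 against 2.06, 3.22 and 3.61, with 3 enriched peaks over 47 of its 76 nt. The Snhg1 span held LOC115489082 (3.88 against 0.87, 2.17 and 2.56) and LOC115489086 (3.24 against −0.01, 1.47 and 1.83). The Gas5 span held LOC115487678 (3.69 against 0.41, 1.39 and 1.93), whose peak had a −log10 p-value of 30.9. Of 16 genes on a list of snoRNA hosts with called knockout peaks outside their small RNAs, 1 had an enriched peak (6.25%, against 2.31% over all genes), compared with 1 of 16, 2 of 12 and 1 of 14 in the controls. It was Tnpo2, with 3.70 against 1.81, 2.11 and 2.69.

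The remaining snoRNA genes had knockout values from 3.01 to 4.28. Snord45b, in Rabggtb, had 4.28 against 1.71, 3.02 and 3.28. Snord42b, in Rpl23a, had 3.32 against 0.02, 0.83 and 1.42 and was covered over all 55 nt.
Gm26109, in the chaperone gene Hspa9, had 3.27 against 1.02, 1.85 and 3.32, and Snord90, in Rc3h2, had 3.07 against 0.90, 2.48 and 3.77. These were the 2 fully shared snoRNA genes at which control 3 exceeded the knockout.
For Snord2, in Eif4a2, the enriched peak (3.37, with 1.60 and 2.05 in controls 2 and 3) covered 4 of 68 nt, and for Snord14a, in Rps13, the peak (3.01 against −1.14, −0.05 and 0.76) covered 3 of 87 nt. LOC115487056, in Tnpo2, had 3.23 in a peak of 6 nt, with 1.87 and 2.28 in controls 2 and 3. Its 2 enriched peaks covered 42 of 70 nt.

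**Figure D2:**
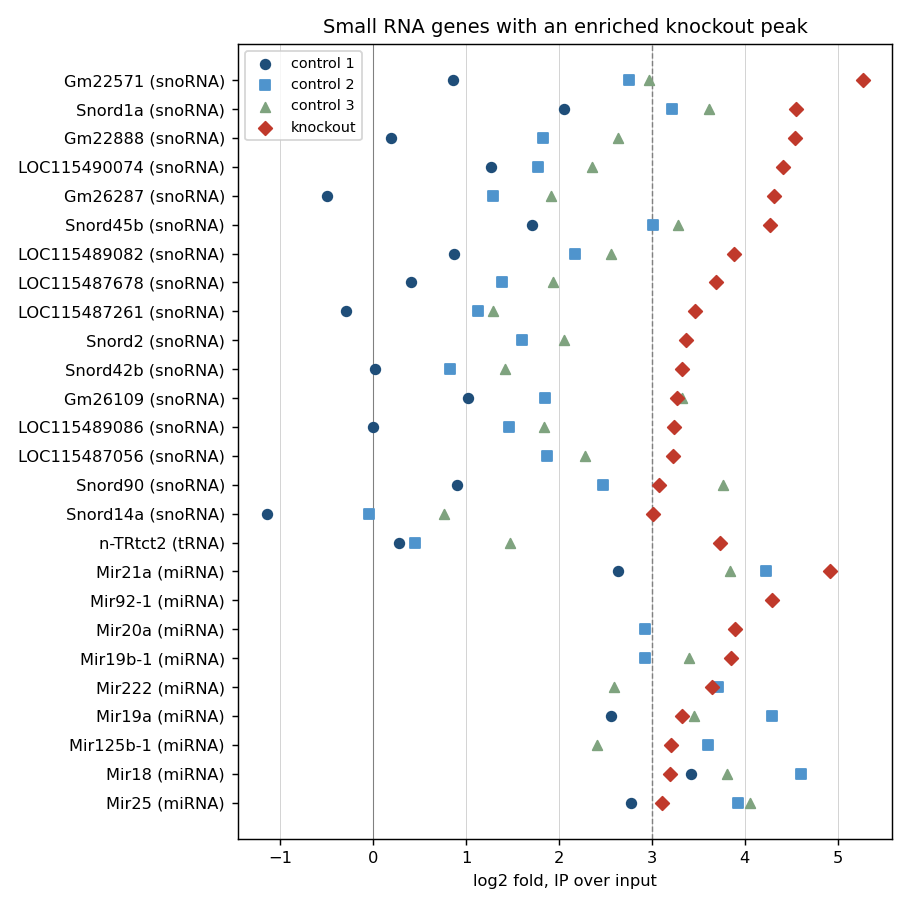
log2 fold of IP over input (x axis) for each small RNA gene with an enriched knockout peak (y axis, gene and kind), in the knockout and at the same position in each control. The dashed line marks the threshold of 3 and a missing symbol means no call. Knockout diamonds stand to the right of all control symbols at most snoRNA genes, while at Mir222, Mir19a, Mir125b-1, Mir18 and Mir25 at least 1 control stands further right.

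The C/D and H/ACA families, as read from gene symbols, stood on opposite sides of 0. No family symbol was given for 348 called knockout snoRNA peaks in 156 genes, with a median log2 fold of −1.28. They held 14 of the 22 enriched snoRNA peaks, and their family was not determined. C/D box genes (symbol Snord) had 139 called knockout peaks in 72 genes with a median log2 fold of 0.98, of which 79.1% were above 0 and 8, in 6 genes, were enriched. H/ACA box genes (symbol Snora) had 124 called peaks in 34 genes with a median of −2.10, of which 4.84% were above 0 and none was enriched. The controls showed the same order with a smaller distance. At the 127 C/D peaks called in all 4 IPs the medians were 0.98 in the knockout and 0.52, 1.07 and 0.71 in the controls. At the 111 H/ACA peaks called in all 4 IPs they were −2.15 in the knockout and −1.02, −0.85 and −1.46 in the controls. The distance between the families was 3.13 in the knockout, against 1.54, 1.92 and 2.17 in controls 1, 2 and 3 (mean 1.88 ± 0.32, SD, n = 3). At the H/ACA peaks the knockout was below every control at 96 of 111. At the C/D peaks it was above every control at 57 and below every control at 41 of 127 peaks. Over all 16028 peaks called in all 4 IPs, the medians were −0.55 in the knockout and 0.31, 0.02 and −0.08 in the controls, and the knockout was below every control at 56.0% and above every control at 11.3%. The size of each family's difference from the control mean depended on this shift, while its sign did not. As deposited, the knockout median minus the control mean was −1.04 for H/ACA and 0.21 for C/D peaks, and after centring each list on its median over the 16028 peaks it was −0.41 and 0.84. The place of the C/D median among the single controls did depend on the shift. As deposited it lay within the control range. After centring it was 1.52, above 0.20, 1.06 and 0.79 in controls 1, 2 and 3. The H/ACA median was below every control both ways, at −1.60 against −1.33, −0.87 and −1.38 after centring. By gene, with the highest peak of each, the knockout exceeded every control at 39 of 72 C/D genes and was below every control at 13, and it was below every control at 27 of 33 shared H/ACA genes and above every control at 0. Small Cajal body RNAs (symbol Scarna), many of which carry H/ACA boxes, had 11 peaks in 7 genes with a median of −2.07 and none enriched.

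**Figure D3:**
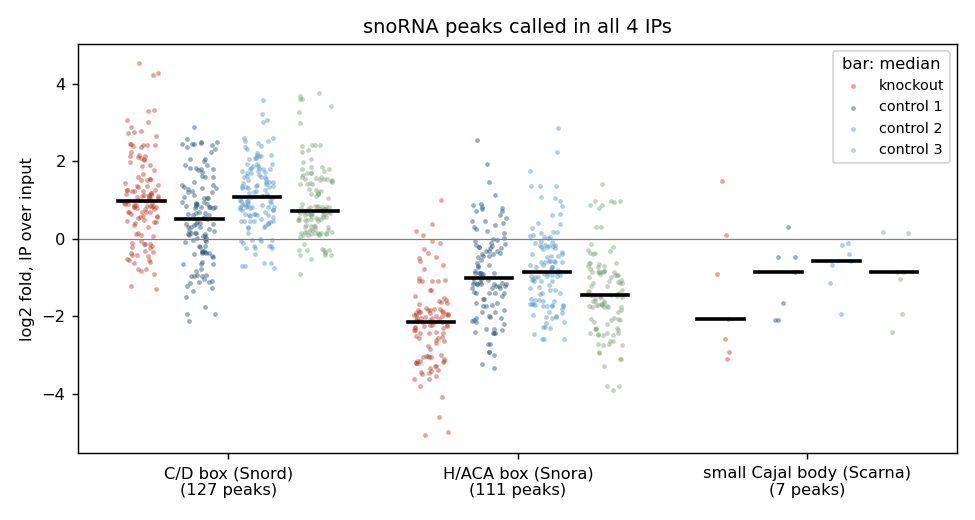
log2 fold of IP over input (y axis) by snoRNA family (x axis), with 1 point per peak and a bar at the median of each library. Shown are peaks called in all 4 IPs in genes with a family symbol (Snord, Snora or Scarna). The 284 snoRNA peaks called in all 4 IPs without such a symbol are not shown. C/D box peaks have medians of 0.52 to 1.07 in all 4 libraries, and the H/ACA median is −2.15 in the knockout against −0.85 to −1.46 in the controls.

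Of the 5 genes with the lowest values in the whole knockout list, 4 were snoRNA genes, among them the H/ACA genes Snora73a, Snora73b and Snora81. Snora73a reached −5.07, against −2.42, −2.60 and −3.90 in controls 1, 2 and 3, and Snora73b, its neighbour in Snhg3, reached −4.09, against −2.33, −2.29 and −3.11. Snora81, in Eif4a2, reached −3.82, against −2.36, −2.16 and −2.96.
LOC115487884, a snoRNA gene in Snhg15, reached −3.92, against −1.76, −1.87 and −2.96. At these 4 positions all 4 libraries were below 0 and the knockout was the lowest. This does not hold at every peak of these genes. The highest Snora73a peak had 1.13 in the knockout, and the highest of controls 2 and 3 had 1.35 and 1.09. The span of Eif4a2 thus held an enriched C/D peak and one of the lowest H/ACA peaks of the same IP.

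Other structured RNAs were called without being enriched. None of the 79 snRNA peaks was enriched (median −0.77), nor any of the 12 peaks of the RNase MRP RNA (median −1.42) or the 8 peaks of RNase P RNA genes (median −2.53). At all 12 MRP peaks and at all 6 RNase P peaks called in every IP, the knockout was below every control.
At tRNA genes the knockout had the higher values. The 26 called tRNA peaks had a median of 0.60, and at the 9 peaks called in all 4 IPs the knockout median was 0.65 against −0.52, −0.71 and −0.68, with the knockout above every control at 7 of 9. The enriched tRNA gene was n-TRtct2, an arginine tRNA gene with a TCT anticodon, at 3.73 against 0.28, 0.45 and 1.48. Its 2 enriched peaks covered 41 of the gene's 85 nt at the 3′ end.

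Of the 6 long non-coding RNA genes with enriched knockout peaks, Neat1 and Xist are nuclear transcripts, Mir100hg, Mir22hg and Mir17hg are microRNA hosts, and Gm46595 is neither by its name. Neat1, the scaffold of paraspeckles, had 80 called knockout peaks, 6 of them enriched, against 47, 33 and 39 called and 1, 0 and 0 enriched in controls 1, 2 and 3. Its median log2 fold was 2.04 in the knockout and 1.68, 0.77 and 1.22 in the controls, and its highest value was 3.62 against 3.03, 2.48 and 2.86. The knockout was thus the highest library in calls, in median and in maximum. Its whole list also held the most called peaks, 167648 against 129323, 153768 and 122284 in controls 1, 2 and 3. The calls per gene were not scaled for this.
Malat1, the neighbouring nuclear transcript on chromosome 19, had 79 called knockout peaks and none enriched, with a median of −0.63 against −1.09, −0.57 and −0.89. The knockout median thus lay between the controls, while the knockout had the most called peaks (79 against 46, 65 and 47) and the highest value (1.55 against 0.83, 0.70 and 0.26). The Malat1 call counts, too, were not scaled for the size of the lists.
Xist, the RNA that coats the inactive X chromosome, had 72 called knockout peaks with a median of 0.14 against −0.36, −0.33 and −0.24, and 3 were enriched against 0 in each control. Its highest knockout peak was 3.65, where the highest Xist peaks of the controls were 1.11, 0.98 and 1.27.

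Among microRNA hosts, Mir100hg had 6 enriched knockout peaks, the highest at 4.14, with 4.10 in control 2 at the same position and no call in controls 1 and 3. Mir22hg reached 4.40, with 1.71 in control 3. Elsewhere in Mir22hg, controls 1 and 3 had 2 and 1 enriched peaks, and their highest values were 4.07 and 4.12. Mir17hg, the host of the miR-17-92 cluster, had 1 called peak, at 3.29 and with no control call at the position. Each control had 1 called peak elsewhere in Mir17hg, at 2.84, 2.95 and 1.77. The remaining gene was Gm46595, at 4.60 against 4.94, 3.50 and 4.30. Its 2 enriched peaks lay on the strand opposite to the annotated gene, the only such case among 422 enriched peaks in genes whose strand was known. All 396 such peaks in protein-coding genes were on the gene's strand.

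Protein-coding genes carried most enriched knockout peaks, often as short clusters within a long span. Of the 239 genes, 138 had 1 enriched peak, 41 had 2, and 60 had 3 or more, and the 24 genes with 5 or more held 171 of the 529 peaks (32.3%). Joining enriched peaks within 50 nt left 378 regions.
Chromosome 19 held 63 of the 529 (11.9%) against 3.29% of all called peaks, and this share includes the clusters of Frmd8, Dusp5, Ubtd1 and Prune2.

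The highest value of the list was in Frmd8, which encodes a FERM-domain partner of the iRhom proteins, at chr19:5861219-5861301. It had a log2 fold of 6.40 against 5.31, 4.43 and 5.40 in controls 1, 2 and 3. Of its 17 called knockout peaks, 13 were enriched, all within 1221 nt, against 10 of 11, 10 of 26 and 11 of 19 in the controls. Elsewhere in the gene control 1 reached 6.46, and controls 2 and 3 reached 5.85 and 5.40, so all 4 IPs recovered Frmd8 above the threshold.
Ptprn, which encodes a protein of dense-core vesicles, followed the same form, with 13 of 24 peaks enriched and a highest value of 5.62 against 4.92, 4.22 and 4.53. Ubtd1, a ubiquitin-domain gene, had 7 enriched peaks within 719 nt and a highest value of 6.11 against 5.54, 3.96 and 5.35.

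Dusp5, a nuclear phosphatase of ERK that is induced by Ras signalling, held the largest number of enriched knockout peaks. It had 18 of 46 peaks enriched within 2391 nt, against 7 of 33, 13 of 33 and 6 of 27 in the controls. Its highest peak was 5.42 (chr19:53540690-53540750), against 3.51, 3.00 and 3.84. A further Dusp5 peak of 4.78 had no call in any control and was the highest of the 59 enriched knockout peaks of that kind.
Other clusters were in Nlk, a kinase of the Wnt and Notch pathways, with 10 enriched peaks (highest 4.80 against 3.69, 3.19 and 4.32), and in Tcf3, an E-protein transcription factor, with 8 (4.65 against 5.28, 5.06 and 4.46). Prkca, protein kinase C alpha, had 8 (4.48, with 2.60 and 3.40 in controls 2 and 3) and Sipa1l2 had 8 (4.76, with 2.02 and 4.45 in controls 2 and 3). Emp1, a tetraspan membrane protein gene, had 6 (5.19 against 3.73, 3.48 and 2.84).

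Prune2 went the other way. Its 6 enriched knockout peaks reached 4.93, against 6.44, 7.78 and 7.16 at the same position, and the controls had 13, 13 and 14 enriched peaks in this gene. All 4 IPs recovered Prune2 far above the threshold, the knockout least.
Atxn2, the RNA-binding protein ataxin-2, had 5.71 against 4.56, 3.89 and 4.17. Smyd3, a lysine methyltransferase, had 5.77 against 3.95, 2.74 and 3.44. Anapc5, a subunit of the anaphase-promoting complex, had 5.48 against 3.59, 2.75 and 2.06, and Bcl2l12 had 5.26 against 3.21, 3.15 and 3.43. At these positions the knockout was above every control.
In Dcakd (5.76 against 5.44, 5.85 and 5.66), Plekhm2, a lysosomal kinesin adaptor (5.52 against 4.88, 5.85 and 4.91), Sgms1, a sphingomyelin synthase (5.50 against 3.73, 5.66 and 4.81), Calu, a calcium-binding protein of the secretory pathway (5.50 against 4.22, 2.95 and 5.79) and Stag1, a cohesin subunit (5.15 against 5.99, 3.99 and 4.30), 1 control was above the knockout. Mrps27, of the mitochondrial ribosome, had 5.09 against 4.81, 2.34 and 4.45. Trio, a guanine nucleotide exchange factor, had 5.07 against 3.44, 3.26 and 2.55, and Lims1, a focal adhesion adaptor, had 4.93 against 4.71, 2.48 and 4.18.

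**Figure D4:**
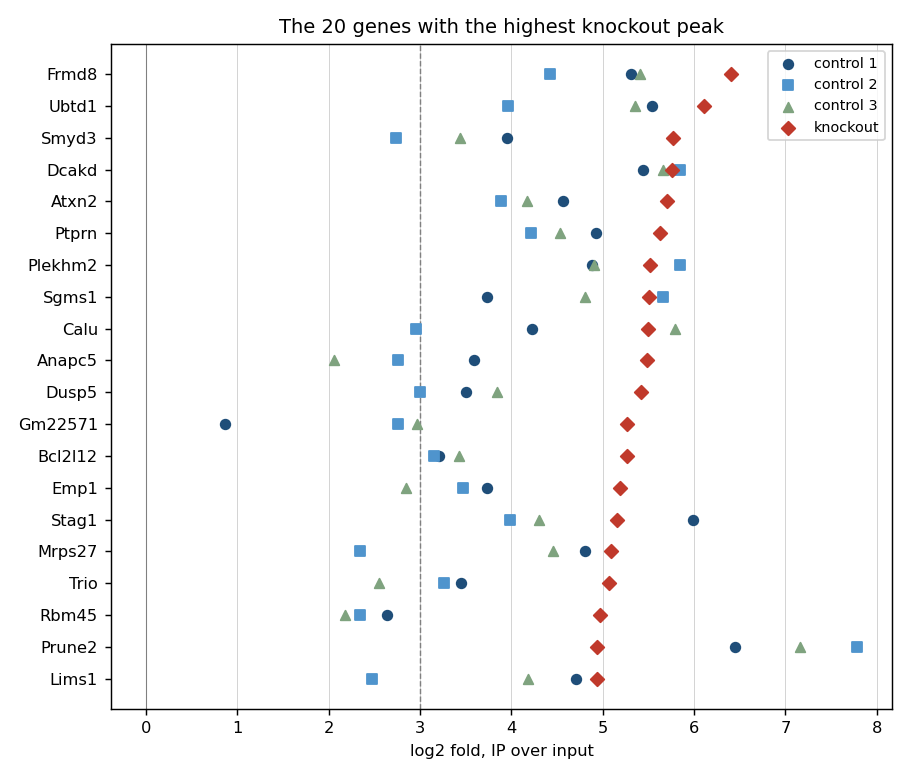
log2 fold of IP over input (x axis) at the highest knockout peak of the 20 genes with the highest values (y axis), in the knockout and at the same position in each control. The dashed line marks the threshold of 3. Every gene has a call in all 3 controls, the knockout runs from 4.93 to 6.40, and Prune2 has all 3 controls above the knockout.

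The span that held the smallest p-values among enriched knockout peaks was shared by Cmss1 and Filip1l, so no gene was named by the rule, and this position was chosen after its value was seen. The peak at chr16:57391658-57391685 had a log2 fold of 3.35 and a −log10 p-value of 66.9, against log2 folds of 5.48, 6.76 and 5.04 in the controls. All 3 controls were higher than the knockout at this position.

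Measured against the controls at the same positions, 470 of the 529 enriched knockout peaks (88.8%) lay over a called peak of at least 1 control. A called peak of all 3 controls overlapped 316 of the 529 (59.7%, 55.4 to 63.9%), against 16028 of all 167648 called knockout peaks (9.56%). At least 1 control had an enriched peak at 313 (59.2%, 54.8 to 63.4%), and all 3 controls had one at 121 (22.9%). Over all called knockout peaks these shares were 0.712% and 0.113%. By control, 237, 186 and 224 of the 529 were enriched in controls 1, 2 and 3. At the 316 shared positions the median log2 fold was 3.80 in the knockout and 3.62, 3.21 and 3.54 in the controls, and the median of the control means was 3.46. All 4 IPs were above 0 at 305 of the 316. The knockout was above every control at 144 (45.6%) and below every control at 48 (15.2%), a split favoured by the choice of positions on the knockout value. Over all 16028 shared peaks it was turned, with 11.3% above and 56.0% below. The overlap figures depend on how a shared position is defined: when at least 50% of the knockout peak had to be covered, 40.8% were called in all 3 controls and 53.9% were enriched in at least 1. No value under the 50% rule is given for all called knockout peaks. Enriched knockout peaks were also longer, with a median of 83 nt against 42 nt over all called ones. By gene, 137, 121 and 113 of the 239 genes also had an enriched peak in controls 1, 2 and 3, with 80 genes in all 3 and 71 in none.

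**Figure D5:**
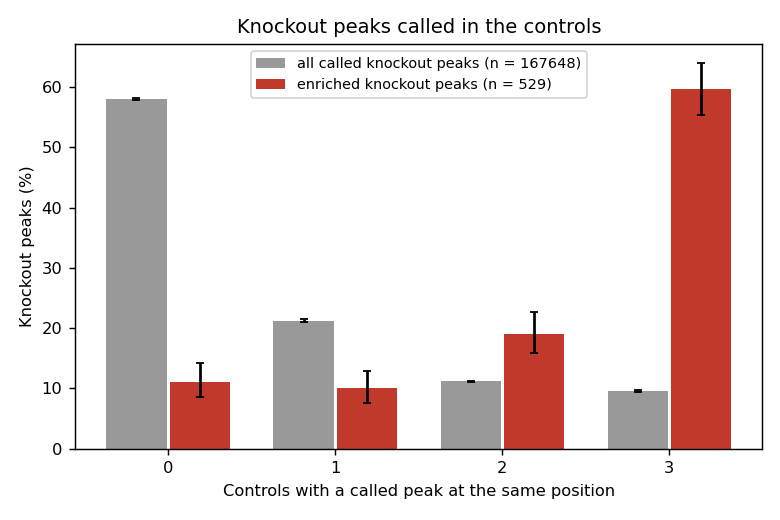
Percent of knockout peaks (y axis) by the number of controls with a called peak at the same position (x axis, 0 to 3). Grey bars are all 167648 called knockout peaks and red bars the 529 enriched ones, with exact 95% binomial intervals. Enriched peaks fall mostly in the bin of 3 controls (59.7%) and all called peaks mostly in the bin of 0 controls (58.0%).

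Among enriched knockout peaks called in all 3 controls, the positions where the knockout stood farthest above the highest control were mixed between coding and small RNA genes. Tlk2, a chromatin-assembly kinase, had 3.73 against −0.69, −1.98 and 1.01, and its 3 enriched peaks lay within 25 nt. Hypk, a partner of the N-terminal acetyltransferase NatA, had 3.37 against 0.73, −0.18 and 0.92. Rbm45, an RNA-binding protein gene, had 4.97 against 2.64, 2.34 and 2.18. In these 3 genes no control had an enriched peak. Further genes of this ranking were Gm26287, Gm22571, n-TRtct2, Snord14a, LOC115487261 and LOC115490074, given above.

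A further 59 enriched knockout peaks (11.2%, 8.60 to 14.2%) had no call in any control, against 58.0% of all called knockout peaks. After Dusp5, the highest were in Dock3 (4.53), Rftn1, which encodes a lipid-raft protein (4.48), Uggt2, a glucosyltransferase of glycoprotein folding (4.45), the tetraspanin Cd81 (4.35), Prkca (4.32), Mir92-1 (4.29), Emp1 (4.14), Cdk17 (3.97) and Ptprn (3.93). Of these genes, Prkca, Emp1, Ptprn, Dusp5, Rftn1, Cd81 and Cdk17 had enriched control peaks elsewhere in their span, and Dock3, Uggt2 and Mir92-1 had none.
Positions where a control stood well above the knockout, named after their values were seen, included Lars2 (3.60 against 5.90, 2.88 and 3.54), a second Prune2 position (4.89 against 6.11, 7.15 and 7.06) and Wdr92 (3.14 against 4.76, 6.57 and 4.68). In Prune2 and Wdr92 all 3 controls were higher, and in Lars2 control 1 alone was.

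Gene lists by function gave few enriched genes in the knockout, read against 2.31% over all genes with a called peak. These gene counts do not allow for the number of called peaks per gene. By peak, 0.313% were enriched over all uniquely named genes. C/D box snoRNA genes had 6 of 72, against 0 of 73, 2 of 74 and 4 of 72 in controls 1, 2 and 3. MicroRNA genes named by prefix had 9 of 107, against 6 of 88, 16 of 119 and 5 of 109. The list of nuclear long non-coding RNAs had 4 of 9, against 3, 1 and 1 of 9. By peak this list had 12 of 744 enriched (1.61%). Its enriched genes include the microRNA hosts Mir22hg and Mir17hg. For tRNA genes the count was 1 of 20, against 0 of 9, 0 of 16 and 0 of 11. H/ACA box genes had 0 of 34, small Cajal body RNAs 0 of 7, spliceosomal snRNA genes 0 of 10, and the RNA polymerase III and other structured RNAs 0 of 7.
Replication-dependent histone genes, whose mRNAs end in a stem-loop, had 0 of 45, with a median peak of −0.72 against 0.39, 0.02 and −0.21. Transcripts of the mitochondrial genome had no called peak in any of the 4 lists.
Among abundant coding transcripts, translation factors had 0 of 28, chaperones 0 of 25 and glycolysis genes 0 of 16.

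Actin cytoskeleton genes had 10 of 1299 called knockout peaks enriched (0.770%). By gene they had 4 of 24, compared with 7, 7 and 3 of 24 in the controls. These were Myh9, the heavy chain of non-muscle myosin (4.80, with 1.34 and 1.68 in controls 2 and 3), the focal adhesion protein Pxn (3.82 against 3.28, 4.60 and 3.14), the tropomyosin Tpm3 (3.23, with 1.99 and 2.40 in controls 1 and 3) and the talin Tln1 (3.00, no control call). Extracellular matrix genes had 2 of 17, against 0 of 17, 3 of 19 and 0 of 17 in controls 1, 2 and 3. They were Fbn1 (4.37 against 2.90, 2.02 and 2.40) and Tnc (3.78, with 1.05 in control 1). By peak the matrix genes had 2 of 999 enriched (0.200%), below the 0.313% over all uniquely named genes.
Among RNA-binding splicing regulators, Mbnl2 had 4.17, with 2.60 in control 3. Double-stranded RNA-binding proteins had 1 of 17 genes and 1 of 366 peaks (0.273%). The control genes were 3 of 16, 5 of 17 and 2 of 15. The knockout gene was Eif2ak2, the kinase PKR (3.50, with 2.34 and 2.60 in controls 2 and 3). The zinc-finger family of Zmat3 had 0 of 7. Zmat3 itself had 38 called peaks and none enriched, with a median of 0.73 against 0.88, 0.80 and 0.60, and a value over input does not show whether the gene was deleted.
The p53 pathway had 1 of 24, against 3 of 23, 5 of 25 and 2 of 22 in the controls. It was Mdm2, the ubiquitin ligase of p53 (3.02, no control call at the position). Elsewhere in Mdm2, controls 2 and 3 had 2 and 1 enriched peaks, and their highest values were 4.67 and 4.57. Ras and MAPK signalling had 1 of 28, which was Dusp5, against 2, 5 and 2 of 28. Among chromatin regulators, besides Smyd3, the methyltransferase Ehmt1 had 3.60, with 4.10 and 3.84 in controls 2 and 3.

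Within protein-coding spans, read on the strand of the peak, 54.0% of 457 enriched knockout peaks lay in the middle part (25 to 75% of the span), 10.7% in the first 10% and 6.35% in the last 10%. Among all called knockout peaks in such spans these shares were 44.7%, 13.9% and 13.2%. The enriched peaks of controls 1, 2 and 3 had 6.90%, 12.2% and 5.86% in the last 10%, so the knockout share lay within the control range. Exons and introns were not separated here.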

How the data were processed

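CLIP and input libraries of 8 samples were considered, and 4 of the 7 deposited peak lists were used, each comparing an IP with input. The 3 lists of control against knockout IP were not used. The authors deposited, per peak, a log2 fold over input and a −log10 p-value. Both units were read from the values, since the lists have no header, and the −log10 p-value was 0 at every peak below a log2 fold of 0. Coordinates are mm10, per the submitters' processing notes. The adapter carries random bases, per the labels' protocols; not given in the sources used here are the aligner, the peak caller and the handling of duplicates. BED starts were converted to 1-based positions. Peaks were assigned with the RefSeq gene table (GRCm38.p6), first to any overlapping non-coding gene of at most 500 nt (small RNA), then by midpoint to protein-coding, long non-coding and other genes. A peak overlapped a control peak if at least 1 nt was shared on the same strand, and the highest overlapping value was taken. Adjacent peaks of a list abut and never overlap. Assignment and overlap were tested on 1000 simulated peaks, and 1000 were assigned as made. Depth is unknown and no test was run between libraries. Named genes are Zmat3, the 20 with the highest peak, the 10 with most enriched peaks, the 25 highest small RNA genes, the 10 highest long non-coding genes, up to 4 members per list, the 10 farthest above the controls, the 10 highest with no control call and the 5 lowest. A peak in the span of several genes was not named, and some genes and list counts that the rule would name are not reported here. Snord14a, the lowest of the 26 small RNA genes, enters through the genes above the controls. The members and gene lists were chosen with earlier results of these data known. The alternatives were other thresholds, class sizes, overlap rules, and the controls left out in turn. Python 3.11.15, pandas 2.3.3, NumPy 2.4.6, SciPy 1.17.1 and matplotlib 3.10.9 were used.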

Additional observations from a re-analysis of the deposited data

Results flagged for a closer look

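The sign of some median log2 folds over input was opposite in the knockout and in all 3 controls. The difference was not tested, since there was 1 knockout library. At the 9 tRNA peaks called in all 4 IPs, the knockout median was 0.65 and every control median was below 0. Over all called tRNA peaks the signs were not opposite, with medians of 0.60 in the knockout and −0.36, 0.34 and 0.27 in controls 1, 2 and 3. The reverse was seen for all called peaks of 5 gene lists, with knockout medians of −0.086 for spliceosomal snRNA genes, −0.35 for ribosomal protein genes, −0.35 for glycolysis genes, −0.073 for actin cytoskeleton genes and −0.031 for RNA-binding splicing regulators, and control medians above 0 in each. The median over all called peaks was itself lower in the knockout, at 0.23 against 0.90, 0.60 and 0.60.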

How the results depend on the processing

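Of 55 alternative values over 10 results, 29 stayed within the set limits, 26 moved and 0 changed sign. A change of sign is informative only for the C/D and H/ACA differences. The other results were counts or shares, which have no sign, or a median control fold at positions chosen on a high knockout value. With a log2 fold of at least 2 there were 841 enriched knockout peaks, with shares of 9.75% in small RNA, 8.68% in long non-coding RNA and 80.1% in protein-coding genes, and a median control log2 fold of 3.13. With at least 4 there were 162 peaks in 91 genes, with 1.85% in long non-coding RNA genes, 71.6% called in all 3 controls and a median control fold of 3.83. With a −log10 p-value of at least 5 there were 302 peaks in 136 genes, with 9.60% in small RNA and 83.8% in protein-coding genes, 73.2% called in all 3 controls and 63.9% enriched in at least 1. Requiring 50% overlap gave 40.8% and 53.9% for those overlaps. Without the 24 genes that held 5 or more enriched peaks, a setting added after seeing the data, the small RNA share was 10.1% and the long non-coding share 2.23%. Centring each list, also added after seeing the data, moved the knockout minus control difference from 0.21 to 0.84 for C/D and from −1.04 to −0.41 for H/ACA peaks. Leaving out each control in turn gave 62.9 to 67.7% called in every remaining control (67.7% without control 1 or 2), 49.1 to 55.6% enriched in at least 1, and a median control fold of 3.27 to 3.48. Fewer controls have to agree in the first of these and fewer can contribute in the second; for the other settings the cause was not tested. No paired analysis was possible because there was 1 knockout library, each list already sets an IP against input, and no test between libraries was made. The fold and p-value rest on read numbers that the lists do not hold, so the precision of a single peak is unknown. In the 529 enriched knockout peaks only 222 distinct pairs of fold and p-value occurred, and the most frequent pair was shared by 22 peaks.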
